A study of Mus musculus with 12 samples.

Results

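The genes described here are Becn1, Wdr81 and 8 genes whose products work with theirs, the Vps34 lipid kinase subunits Pik3c3, Pik3r4, Uvrag, Atg14 and Nrbf2, the Vps34 inhibitor Rubcn, the Wdr81 partner Wdr91 and the Arf6 regulator Acap3. They were chosen by name, since Becn1, Wdr81 and Acap3 are the transcripts whose splicing the study connects to endosomal trafficking, and all 10 were found among the 51490 genes of the count table. RNA was sequenced from immortalized mouse embryonic palatal mesenchyme (iMEPM) cells, a line made from a male Cdkn2a-/- embryo, in which the loss of Cdkn2a, a brake on the cell cycle, lets the cells divide without limit. The cells were transduced with lentivirus coding for a scramble shRNA or an shRNA against Srsf3 (shSrsf3), a serine/arginine-rich splicing factor, selected with puromycin and sorted for GFP, and each shRNA was studied as 1 stable line. Cells of each line were starved of serum and then left without ligand (-PDGF-AA) or given 10 ng/mL PDGF-AA, which activates the receptor PDGFRα, for 1 hr (+PDGF-AA). Each of the 4 groups had 3 samples, which the study calls biological replicates, and the p-values measure the spread between these samples. The Cdkn2a deletion, the transduction and the selection are common to all 12 samples, so neither normal palatal mesenchyme nor untransduced cells were compared.

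Vps34, the product of Pik3c3, adds a phosphate to phosphatidylinositol and so makes PI(3)P, the lipid that marks early endosomes and forming autophagosomes. It works with Vps15 (Pik3r4) and Beclin-1 (Becn1) in a pair of complexes, one that holds Atg14 and starts autophagosomes and one that holds Uvrag and acts on endosomes, where Rubicon (Rubcn) restrains it. Wdr81 and Wdr91 bind Beclin-1 and lower PI(3)P synthesis, which lets early endosomes become late endosomes, the route by which an internalized receptor tyrosine kinase such as PDGFRα reaches the lysosome. Acap3 switches off the small GTPase Arf6, which governs traffic between endosomes and the plasma membrane.

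A gene's count pools all of its spliced forms, so exon skipping and intron retention were not measured here, and the sequences show which forms the counts add together. Becn1 lies at chr11:101176769-101193122 and Wdr81 at chr11:75331770-75345547, both on the minus strand of GRCm39. Exon 9 of Wdr81 (chr11:75335081-75335260) has 180 bases, all of them coding, which is 60 codons, so that leaving it out keeps the reading frame. The annotation holds 8 Wdr81 transcripts with this exon and 1 that joins exon 8 to exon 10. The junctions are shown 5′ to 3′ on the strand of the gene, with the bases of exon 9 in capitals.
Wdr81 exon 8 to exon 9: aagccaggcttgcagCATGAGTTCCGACTG
Wdr81 exon 9 to exon 10: ATTCTACAGATCAAGgctgtagagggcagc
Wdr81 exon 8 to exon 10: aagccaggcttgcaggctgtagagggcagc

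Intron 7 of Becn1 (chr11:101184974-101185795) has 822 bases and is kept in 2 of the 66 annotated Becn1 transcripts. A transcript that keeps it meets an in-frame TAG stop at base 65 of the intron, after 247 codons, where the full reading frame has 448. The lines give the border of exon 7 with the intron, the border of the intron with exon 8, the spliced junction and the stop, with intron bases in capitals in the first pair and the stop codon in capitals in the last line.
Becn1 exon 7 to intron 7: ccaggaggaagctcaGTGGGTGCTTGCCCT
Becn1 intron 7 to exon 8: CTTGGCTGCTCCCAGgtaccagcgggagta
Becn1 exon 7 to exon 8: ccaggaggaagctcagtaccagcgggagta
Becn1 first in-frame stop in intron 7: tgggggccagctTAGgtctgactgggt

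Of the 66 Becn1 transcripts in the annotation, 21 are coding and 37 are listed as targets of nonsense-mediated decay. Acap3 (chr4:155976246-155991876, plus strand) has 45 transcripts, 15 coding and 23 listed as decay targets, and Wdr81 has 10, of which 4 are coding and 5 are listed as decay targets. A change in the summed count of any of these genes therefore cannot be assigned to 1 form of the transcript.

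The 12 libraries held between 30958870 and 76123207 counts, and the 3 shSrsf3 +PDGF-AA libraries, at 30958870 to 37334636, were among the 4 shallowest. Srsf3, the targeted gene, had 199 to 212 counts per 1000000 (CPM, with library sizes scaled by TMM) in scramble and 161 to 164 CPM in shSrsf3 without ligand, and 215 to 231 against 161 to 170 CPM with ligand. Its log2 fold change was -0.34 ± 0.04 (SE) without and -0.43 ± 0.04 with ligand (edgeR's quasi-likelihood test, adjusted p = 7.95e-06 and 9.54e-07, n = 3 per group). These values are of RNA, and the study measured a fall of the Srsf3 protein in the shSrsf3 line by western blot.

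Some cell type markers differed between shSrsf3 and scramble cells. Of 9 tested mesenchymal markers, 5 were called lower and 1 higher in shSrsf3 without ligand, beside 23.7% and 22.2% of all tested genes. With ligand, 4 were called lower and 1 higher, beside 20.7% and 20.3% (edgeR's quasi-likelihood test). The markers were not tested against all genes. Pdgfra, the receptor for the ligand, had 73.9 ± 6.24 CPM (SD, n = 3) in scramble and 51.3 ± 2.04 CPM in shSrsf3 without ligand, and 59.9 ± 0.77 and 46.6 ± 2.00 CPM with ligand. The palatal transcription factors were low throughout, at means of 2.73 to 5.23 CPM for Osr2 and 0.719 to 1.70 CPM for Msx1, both of which were called lower without ligand, and Tbx22 had no count. Sums of markers are given per library total without TMM scaling, and means of single genes with it. The 6 epithelial markers summed to 4.70 to 6.08 CPM in scramble and 2.92 to 4.17 CPM in shSrsf3. Of the 3 tested, only Cdh1 was called, at means of 2.36 against 0.484 CPM without and 2.17 against 0.563 CPM with ligand. Trp63 had means of 2.90 against 2.72 CPM and 2.93 against 2.54 CPM. The 4 endothelial markers did not move together. Their sum was 30.5 to 34.3 CPM in scramble and 19.2 to 23.05 CPM in shSrsf3, which follows Tek, called lower, while Cdh5 (0.274 against 1.37 CPM without and 0.206 against 1.48 CPM with ligand) and Kdr (0.251 against 0.623 and 0.336 against 0.635 CPM) were called higher in both conditions. The sum of 4 immune markers was at most 1.71 CPM. These differences stand beside every comparison of shSrsf3 with scramble given here, and their part in the results was not tested. In RNA from whole cultures, fewer cells of a kind and less RNA per cell cannot be told apart.

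Relative to their length, the 10 genes spanned more than a factor of 10 in level. In scramble cells without ligand, counts divided by the summed length of each gene's exons and scaled so that all genes sum to 1000000 gave 59.4 ± 1.56 (SD, n = 3) for Becn1 and 40.6 ± 2.05 for Nrbf2, followed by Rubcn (22.1 ± 2.00), Wdr81 (21.5 ± 1.99), Acap3 (16.4 ± 0.93) and Pik3r4 (14.98 ± 1.06). Atg14 (8.64 ± 1.65), Pik3c3 (8.28 ± 0.93) and Uvrag (7.44 ± 0.43) came next, and Wdr91 was lowest at 4.06 ± 0.53 on this scale. Neighbours in this order whose samples overlapped were Rubcn and Wdr81, Acap3 and Pik3r4, Atg14 and Pik3c3, and Pik3c3 and Uvrag. Becn1, the scaffold of both complexes, was above the catalytic subunit Pik3c3 in level per length in every sample.

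**Figure D1:**
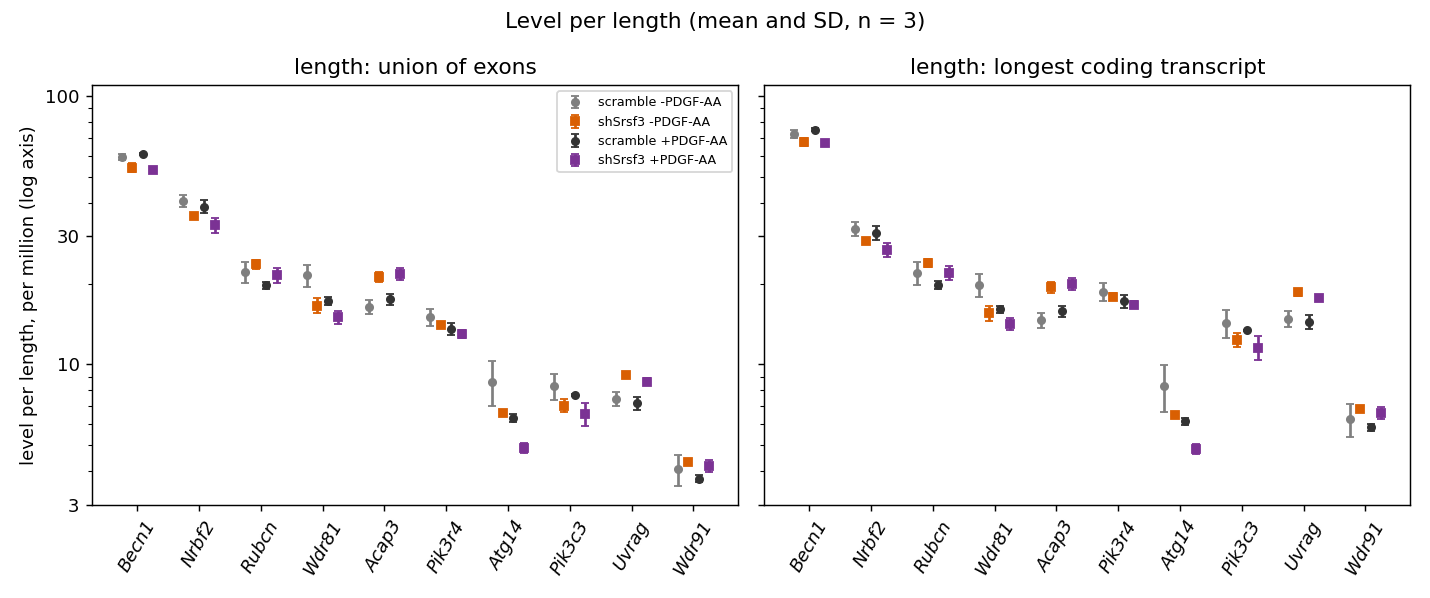
Level per length of the 10 genes in the 4 groups on a log axis, as mean and SD over 3 samples, with the union of a gene's exons (left) or its longest coding transcript (right) as the length. Becn1 and Nrbf2 were highest with both lengths, while Uvrag in scramble -PDGF-AA was at 7.44 with the first and 14.8 with the second. Its exons sum to 17622 bases and its longest coding transcript has 6389.

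Comparing shSrsf3 with scramble cells asks how these genes differ when Srsf3 is reduced, at each ligand condition. A gene was called when its adjusted p over the 15037 tested genes was 0.05 or less. Without ligand, 7 of the 10 genes were called, 5 lower (Pik3c3, Becn1, Atg14, Nrbf2 and Wdr81) and 2 higher (Uvrag and Acap3) in shSrsf3, where 45.9% of all tested genes were called, 23.7% lower and 22.2% higher. With ligand, the same 7 were called in the same directions, as was Rubcn, which was higher, beside 41% of all tested genes, 20.7% lower and 20.3% higher. With 10 genes, these shares were not tested against those of all genes. None of the 10 reached a 2-fold change, as 5.75% of tested genes did without and 5.42% with ligand. The 10 genes had a median of -0.10 in the absence and -0.11 in the presence of ligand on the log2 scale, beside -0.02 and -0.01 over all genes. Their median size of change regardless of sign, 0.20 and 0.19, was at the level of all tested genes, 0.20 and 0.19.

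**Figure D2:**
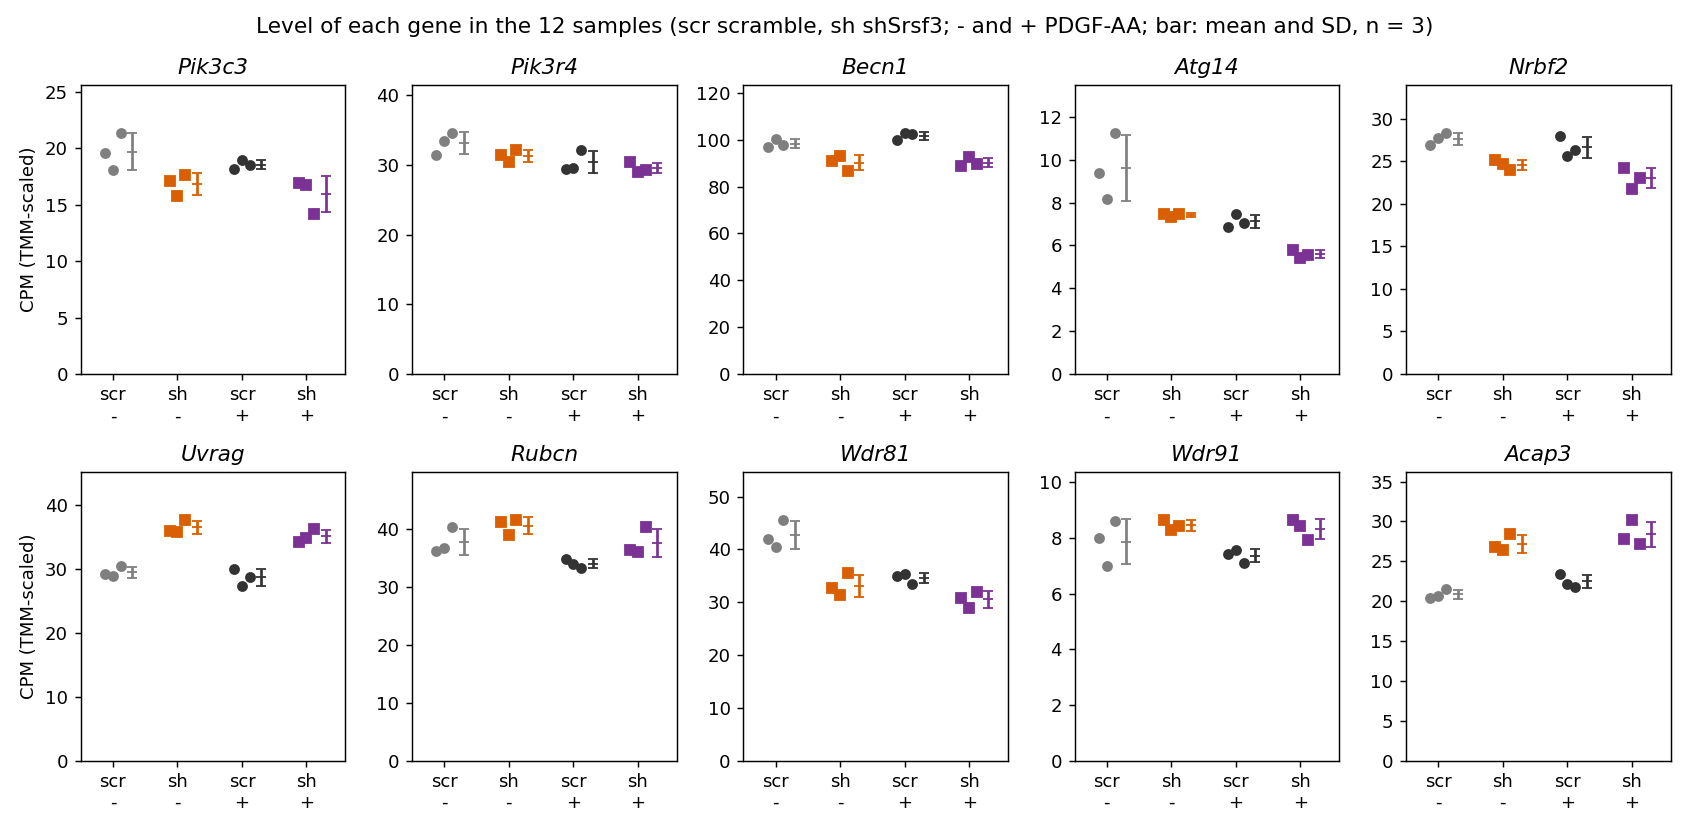
CPM of each of the 10 genes in every sample, with points for the samples and bars for the mean and SD of each group, and axes that start at 0. Uvrag and Acap3 were higher and Pik3c3, Becn1, Nrbf2, Atg14 and Wdr81 lower in shSrsf3 than in scramble with no overlap in both ligand conditions. Groups did not overlap for 53.3% of all tested genes without and 52.6% with ligand. The differences were small beside the levels.

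Of the core shared by both complexes, the catalytic subunit and the scaffold were lower in shSrsf3 and the regulatory kinase-like subunit was not called. Pik3c3 (chromosome 18), which encodes Vps34, had 19.6, 18.1 and 21.4 CPM in the 3 scramble and 17.2, 15.8 and 17.7 CPM in the 3 shSrsf3 samples without ligand. With ligand it had 18.2, 18.9 and 18.6 CPM in scramble and 16.97, 16.8 and 14.2 CPM in shSrsf3. All 3 shSrsf3 samples lay below all scramble samples in both conditions, and the log2 fold changes were -0.23 ± 0.07 (SE; edgeR, adjusted p = 0.0193) and -0.22 ± 0.07 (adjusted p = 0.0329). These calls depended on single libraries. Without ligand, leaving out scramble replicate 3 gave -0.15 (edgeR's quasi-likelihood test, adjusted p = 0.107) and leaving out shSrsf3 replicate 2 gave -0.18 (adjusted p = 0.0906). With ligand, leaving out shSrsf3 replicate 3 gave -0.14 (adjusted p = 0.175), and the adjusted p was 0.0519, 0.0799 and 0.0713 without scramble replicate 1, 2 and 3.

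Becn1 had 96.8, 100.4 and 97.6 CPM in scramble and 91.1, 93.1 and 86.7 CPM in shSrsf3 without ligand. In the presence of ligand it had 99.8, 102.9 and 102.5 CPM in scramble and 88.7, 92.5 and 89.6 CPM in shSrsf3. The groups did not overlap in either condition, and Becn1 fell by 0.12 ± 0.04 (SE; edgeR, adjusted p = 0.0167) and by 0.17 ± 0.04 (adjusted p = 0.00229) on the log2 scale, a fold of 0.919 (95% interval 0.869 to 0.972) and 0.887 (0.839 to 0.939). Without ligand the call was lost when scramble replicate 2 or shSrsf3 replicate 3 was left out (edgeR's quasi-likelihood test, adjusted p = 0.0721 and 0.0901), and with all genes in place of those that passed the filter on low counts (0.0585). The call with ligand was kept when each library was left out. Becn1 overlaps Cntd1 on the other strand over 10375 bases, and Cntd1 had a mean count of 15.8.

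Pik3r4, which encodes Vps15, had 31.5 to 34.6 CPM in scramble and 30.4 to 32.1 CPM in shSrsf3 without ligand, and 29.4 to 32.2 against 29.1 to 30.4 CPM with ligand. The groups overlapped in both conditions. The 95% interval of its log2 fold change ran from -0.19 to 0.01 without and from -0.14 to 0.06 with ligand, so a fall of 0.12, the size seen for Becn1 without ligand, lay within both.

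The subunits that set the autophagy complex apart were lower in shSrsf3. Atg14 (chr14:47778235-47808106, minus strand), which brings Vps34 to the sites where autophagosomes form, had 9.38, 8.18 and 11.3 CPM in scramble and 7.46, 7.32 and 7.49 CPM in shSrsf3 without ligand. In the ligand-treated samples it had 6.86, 7.48 and 7.03 CPM in scramble and 5.798, 5.42 and 5.57 CPM in shSrsf3. The groups did not overlap in either condition. The log2 fold change was -0.38 ± 0.09 (SE; edgeR, adjusted p = 0.0049) without and -0.35 ± 0.10 (adjusted p = 0.0144) with ligand. Leaving out scramble replicate 3 moved the value without ligand to -0.23, and without shSrsf3 replicate 2 the adjusted p with ligand was 0.0509 (edgeR's quasi-likelihood test).

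Nrbf2 (chr10:67101674-67121136, minus strand), whose product binds and stabilizes the Atg14 complex, had 26.9, 27.8 and 28.3 CPM in scramble and 25.1, 24.7 and 23.9 CPM in shSrsf3 without ligand. With ligand it had 28.0, 25.6 and 26.4 CPM in scramble and 24.3, 21.8 and 23.04 CPM in shSrsf3. No samples overlapped, and the log2 fold changes were -0.17 ± 0.05 (SE; edgeR, adjusted p = 0.00908) and -0.21 ± 0.05 (adjusted p = 0.00327). The value of Nrbf2 is uncertain, because 44.0% of the 31-base words of its transcripts also occur in other genes and 43.6% occur in the predicted gene Gm6740, which had a mean count of 52.3. For the other 9 genes this share was at most 1.99%.

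Uvrag was higher in shSrsf3, although the other subunits of its complex, Pik3c3, Becn1 and Pik3r4, were lower or not called. Uvrag (chr7:98533079-98790496, minus strand), which takes the place of Atg14 in the endosomal complex, had 29.2, 28.8 and 30.4 CPM in scramble and 36.0, 35.8 and 37.6 CPM in shSrsf3 without ligand. The values with ligand were 29.9, 27.4 and 28.7 CPM in scramble and 34.2, 34.7 and 36.2 CPM in shSrsf3. The lowest shSrsf3 sample was above the highest scramble sample in both conditions, with a log2 fold change of 0.31 ± 0.04 (SE; edgeR, adjusted p = 5.99e-05) and 0.29 ± 0.04 (adjusted p = 1.14e-04), which is a fold of 1.24 (95% interval 1.16 to 1.32) and 1.22 (the interval of the log2 value being 0.20 to 0.38). The call was kept with each library left out.

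Rubcn (chr16:32642066-32698136, minus strand), which encodes the inhibitor of the Uvrag complex, had 36.2, 36.8 and 40.4 CPM in scramble and 41.2, 39.0 and 41.6 CPM in shSrsf3 without ligand. In the presence of ligand it had 34.8, 33.9 and 33.2 CPM in scramble and 36.4, 36.0 and 40.4 CPM in shSrsf3. The groups overlapped without ligand, where the log2 fold change was 0.10 (95% interval -0.01 to 0.22; edgeR, adjusted p = 0.136), and did not with ligand, where it was 0.14 ± 0.05 (SE; adjusted p = 0.0459). That call was lost when any 1 library of the groups compared was left out except shSrsf3 replicate 2 (edgeR's quasi-likelihood test, adjusted p = 0.0573 to 0.216). It was also lost without scramble -PDGF-AA replicate 2 or any 1 shSrsf3 -PDGF-AA library (0.0504 to 0.0591), so 3 of 12 such fits kept it. With no filter on low counts the adjusted p was 0.0731. Without ligand, Rubcn was called, at 0.17, once scramble replicate 3 was left out (0.0153). Rubcn and Fyttd1, which had a mean count of 3783, overlap by 267 bases on opposite strands.

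The Wdr81 and Wdr91 pair did not move together. Wdr81 had 42.0, 40.4 and 45.6 CPM in scramble and 32.7, 31.3 and 35.4 CPM in shSrsf3 without ligand. With ligand it had 35.0, 35.3 and 33.4 CPM in scramble and 30.7, 28.9 and 32.0 CPM in shSrsf3. The groups did not overlap in either condition, and the log2 fold change was -0.37 ± 0.06 (SE; edgeR, adjusted p = 1.35e-04) without and -0.18 ± 0.06 (adjusted p = 0.0237) with ligand. The first call was kept with each library left out. The second was lost without scramble replicate 1 or 2 or without shSrsf3 replicate 1 or 2 (edgeR's quasi-likelihood test, adjusted p = 0.0637 to 0.106).

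Wdr91 (chr6:34855998-34887819, minus strand), which had the lowest level of the 10 genes per summed exon length, had 8.002, 6.99 and 8.62 CPM in scramble and 8.65, 8.28 and 8.43 CPM in shSrsf3 without ligand. The values with ligand were 7.42, 7.55 and 7.09 CPM in scramble and 8.63, 8.42 and 7.92 CPM in shSrsf3. The groups overlapped without ligand and were apart with it, but Wdr91 was called in neither, at a log2 fold change of 0.10 (95% interval -0.06 to 0.26; edgeR, adjusted p = 0.301) and 0.18 (0.01 to 0.35; adjusted p = 0.0786). Groups that did not overlap were common, at 53.3% of all tested genes without and 52.6% with ligand, beside 7 and 9 of the 10 genes. Without scramble -PDGF-AA replicate 2 or 3, which belong to other groups, the adjusted p of Wdr91 with ligand was 0.0385 or 0.0420 (edgeR's quasi-likelihood test).

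Acap3, the GTPase-activating protein for Arf6, was higher in shSrsf3 in both ligand conditions. It had 20.4, 20.7 and 21.5 CPM in scramble and 26.8, 26.4 and 28.5 CPM in shSrsf3 without ligand. The values with ligand were 23.4, 22.2 and 21.8 CPM in scramble and 27.8, 30.2 and 27.2 CPM in shSrsf3. No samples overlapped, and the log2 fold change was 0.38 ± 0.05 (SE; edgeR, adjusted p = 3.27e-05) without and 0.34 ± 0.05 (adjusted p = 1.02e-04) with ligand. These are folds of 1.30 and 1.26, with 95% intervals of the log2 values from 0.27 to 0.48 and from 0.23 to 0.44. The call was kept with each library left out. Acap3 overlaps Pusl1, with a mean count of 814, by 403 bases on the opposite strand.

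**Figure D3:**
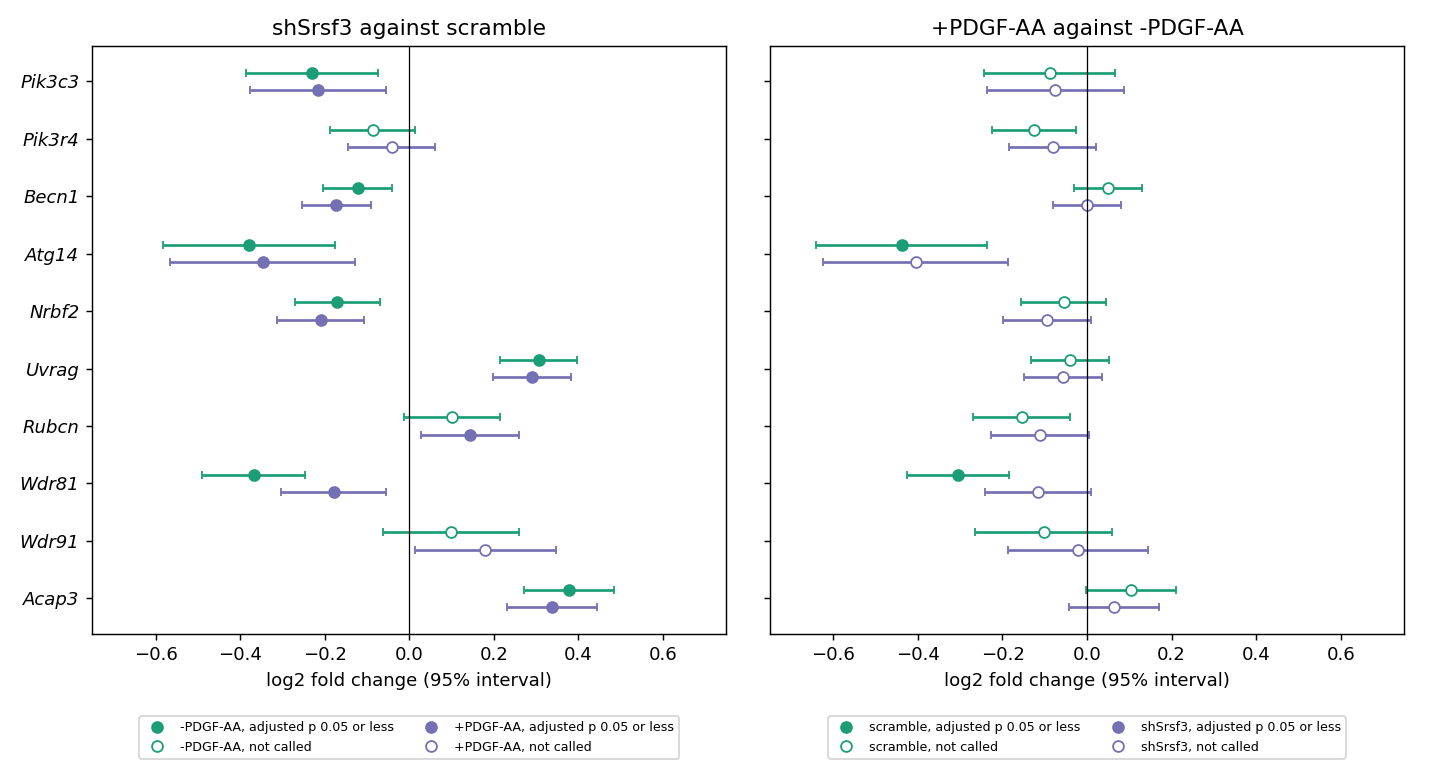
Log2 fold change of each gene with its 95% interval, for shSrsf3 against scramble in both ligand conditions (left) and for +PDGF-AA against -PDGF-AA in both lines (right). Filled points have an adjusted p of 0.05 or less. On the left Uvrag and Acap3 lie at 0.29 to 0.38 and Atg14 at -0.38 and -0.35, and on the right the filled points are Atg14 and Wdr81 in scramble.

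Both Srsf3 comparisons gave calls of the same sign for 7 of the 10 genes and for 33.7% of all tested genes. These 7 were also called in both with DESeq2's size factors and with its test. The 2 comparisons used separate samples of the same 2 lines, so a difference between these lines that did not come from Srsf3 cannot be told apart from the effect of the shRNA.

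To set the alternative subunits against each other independently of library scaling, ratios of their counts within a library were compared between shSrsf3 and scramble, with samples exchanged only within a ligand condition. The ratio of Atg14 to Uvrag was 0.322, 0.284 and 0.370 in scramble and 0.207, 0.204 and 0.199 in shSrsf3 without ligand, and 0.229, 0.273 and 0.245 against 0.170, 0.156 and 0.154 with ligand. The shSrsf3 libraries lay below the scramble libraries without exception, also across ligand conditions, and the ratio was 0.636 times that of scramble (exact permutation test over 400 arrangements, two-sided p = 0.005, the smallest this design allows, adjusted p = 0.00667 over 4 ratios). Atg14 and Uvrag were thus measured moving apart in the same libraries, as the separate tests of these 2 genes already showed.

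The ratio of Wdr81 to Wdr91 had means of 5.44 ± 0.30 (SD, n = 3) in scramble and 3.92 ± 0.24 in shSrsf3 without ligand, and 4.70 ± 0.02 and 3.68 ± 0.32 with ligand. It was 0.750 times that of scramble, with no overlap within a ligand condition (exact permutation test, p = 0.005, adjusted p = 0.00667). The ratio of Rubcn, the inhibitor, to Uvrag, its target, was 1.28 ± 0.04 and 1.11 ± 0.03 without and 1.19 ± 0.04 and 1.07 ± 0.04 with ligand, or 0.885 times that of scramble (exact permutation test, p = 0.005, adjusted p = 0.00667). Rubcn itself was not lower, with log2 fold changes of 0.10 without and 0.14 with ligand, beside 0.31 and 0.29 for Uvrag. Like Atg14 to Uvrag, this ratio and that of Wdr81 to Wdr91 use the libraries of the separate tests. The ratio of Becn1 to Pik3c3, which fell together, was 5.02 ± 0.50 and 5.37 ± 0.50 without and 5.48 ± 0.05 and 5.69 ± 0.57 with ligand, and a difference was not detected (fold 1.05, exact permutation test, p = 0.28). Within 1 ligand condition, 3 samples against 3 cannot give a p below 0.1.

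**Figure D4:**
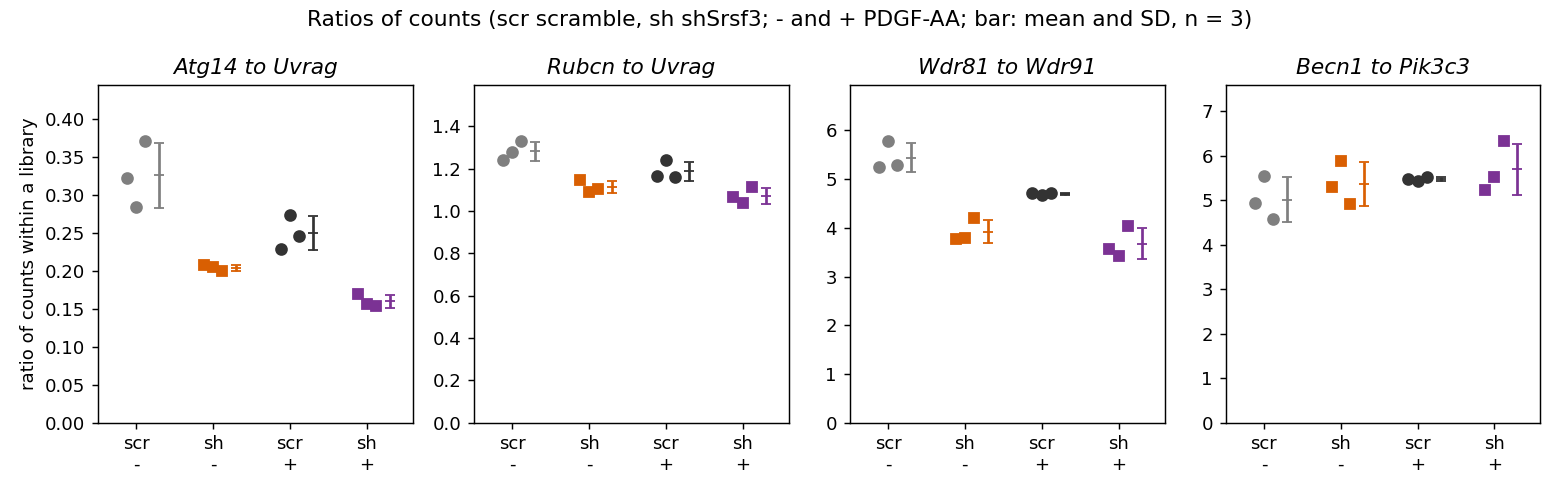
Ratio of the counts of gene pairs within each library, with points for the samples and bars for the mean and SD of each group, and axes that start at 0. Atg14 to Uvrag, Rubcn to Uvrag and Wdr81 to Wdr91 were lower in shSrsf3 in both ligand conditions, and Becn1 to Pik3c3 overlapped.

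Comparing +PDGF-AA with -PDGF-AA within a line asks whether 1 hr of ligand changes the genes. In scramble cells, 2 of the 10 genes were called, both lower with ligand, where 4.04% of all tested genes were called and 2.04% were lower. Wdr81 went from 42.0, 40.4 and 45.6 CPM to 35.0, 35.3 and 33.4 CPM with no overlap, a log2 fold change of -0.30 ± 0.06 (SE; edgeR, adjusted p = 0.00764). Atg14 went from 9.38, 8.18 and 11.3 CPM to 6.86, 7.48 and 7.03 CPM with no overlap, a log2 fold change of -0.44 ± 0.09 (adjusted p = 0.0179), and 92.2% of tested genes changed by less. Without scramble +PDGF-AA replicate 3 the adjusted p was 0.0518 for Wdr81 and 0.0841 for Atg14 (edgeR's quasi-likelihood test), and Atg14 was also lost without scramble +PDGF-AA replicate 1 (0.0812) or with only the 2 groups in the model (0.121). Leaving out scramble -PDGF-AA replicate 3, the highest sample of both genes, moved the log2 fold change of Atg14 to -0.29 and that of Wdr81 to -0.24, and both were still called.

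Rubcn and Acap3 were also apart between the ligand conditions in scramble, as were 18.8% of all tested genes, but were not called. Rubcn had a log2 fold change of -0.15 (95% interval -0.27 to -0.04; edgeR, adjusted p = 0.136) and Acap3 one of 0.10 (0.00 to 0.21; adjusted p = 0.292). Becn1 overlapped between the ligand conditions, at 0.05 (-0.03 to 0.13; adjusted p = 0.524). Pik3r4 overlapped as well and was not called, at -0.13 (-0.23 to -0.03; edgeR, adjusted p = 0.167). The intervals of Pik3c3, Nrbf2, Uvrag and Wdr91 lay between -0.26 and 0.07 on the log2 scale.

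In shSrsf3 cells none of the 10 genes was called for ligand by edgeR's quasi-likelihood test or by DESeq2. Of all tested genes, edgeR called 0.565%. Atg14 changed most of the 10, regardless of sign. It had 7.46, 7.32 and 7.49 CPM without and 5.798, 5.42 and 5.57 CPM with ligand. Its groups did not overlap, as those of 18% of tested genes did not, and its log2 fold change was -0.41 (95% interval -0.63 to -0.19; edgeR, adjusted p = 0.120), close to the value in scramble. With only the 2 groups in the model the adjusted p was 0.0184, and without scramble -PDGF-AA replicate 2 or 3 it was 0.0475 or 0.0173 (edgeR's quasi-likelihood test), although neither library belongs to this comparison. For Wdr81 the log2 fold change was -0.12 (-0.24 to 0.01; adjusted p = 0.574) and for Becn1 0.00 (-0.08 to 0.08; adjusted p = 0.999).

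Whether the ligand acted differently in the 2 lines was tested by the interaction of shSrsf3 and PDGF-AA. None of the 10 genes was called by edgeR or DESeq2, and 1 had an unadjusted p under 0.05, beside 5.54% of all tested genes under 0.05 and 0.0133% called by edgeR. That gene was Wdr81, whose difference between the lines was 0.19 on the log2 scale (95% interval 0.02 to 0.36; edgeR, adjusted p = 0.874). For Atg14 the difference was 0.03, with a 95% interval from -0.27 to 0.33.

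Genes known to act on the same pathway were counted in lists that leave out the 10 genes. Of 22 tested partners and regulators of Beclin-1, 3 rose and 5 fell in shSrsf3 in both ligand conditions, where 16.7% of all tested genes rose and 16.9% fell in both. The medians of this list on the log2 scale were -0.02 without and 0.00 with ligand, against -0.02 and -0.01 over all genes. Its largest changes were falls of the death-associated kinases Dapk1, which phosphorylates Beclin-1 and frees it from Bcl-2 proteins (-1.65 ± 0.08, SE, and -1.64 ± 0.09, without and with ligand), and Dapk2 (-1.12 ± 0.26 and -0.92 ± 0.30). The falls of Dapk1 were far larger than the change of any of the 10 genes. Dapk2 was near the floor, at 9 to 61 counts per library and group means of 0.280 to 0.855 CPM.

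For the turnover of PI(3)P, 4 of 22 tested genes rose and 4 fell in both conditions, with medians of -0.02 in the absence and 0.01 in the presence of ligand. The largest were a fall of the PI(3)P phosphatase Mtmr7 (-0.80 ± 0.30 and -1.145 ± 0.32) and a rise of Inpp4a (0.46 ± 0.07 and 0.29 ± 0.07), a phosphatase that yields PI(3)P from PI(3,4)P2. Mtmr7 was near the floor, at 6 to 54 counts per library and group means of 0.313 to 0.726 CPM. Among 31 tested genes whose products bind PI(3)P, 4 rose and 5 fell, with medians of -0.01 and -0.01. Here the PROPPIN family members Wipi1 (0.47 ± 0.04 and 0.58 ± 0.04) and Wdr45b (-0.23 ± 0.04 and -0.30 ± 0.05) had the largest changes and went in opposite directions.

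For the conversion of early to late endosomes, 6 of 30 tested genes rose and 9 fell in both conditions, and the medians, -0.09 without and -0.11 with ligand, were below those of all genes. Rin2, an activator of Rab5, fell (-0.86 ± 0.10 and -0.99 ± 0.10) and Rab7b, a Rab GTPase of late compartments, rose (0.61 ± 0.05 and 0.76 ± 0.06). Of 32 tested genes of autophagosome formation, 3 rose and 9 fell, with medians of -0.12 and -0.13. Atg13, a subunit of the Ulk1 kinase complex that acts upstream of Vps34, fell (-0.43 ± 0.05 and -0.38 ± 0.05), and Atg16l2, a relative of the lipidation factor Atg16l1, rose (0.51 ± 0.12 and 0.54 ± 0.12).

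Of 25 tested genes of the Arf6 cycle, to which Acap3 belongs, 8 rose and 3 fell in both conditions, and the medians were 0.05 in the absence and 0.10 in the presence of ligand. Agap2, which acts mainly on other Arf proteins and enhances PI3K signaling, fell (-1.27 ± 0.15 and -1.61 ± 0.16), while Adap1, a GTPase-activating protein for Arf6, rose (1.07 ± 0.37 and 1.11 ± 0.38). Adap1 was near the floor, at 6 to 47 counts per library and group means of 0.206 to 0.475 CPM. No list was tested as a set, so no list is called different from the rest of the genes. For ligand in scramble cells, where 4.04% of all tested genes were called, 2 of the 22 genes of the Beclin-1 list, 1 of the 22 of the turnover list, 4 of the 31 that bind PI(3)P and 3 of the 32 of the autophagosome list were called. None of the 30 endosome conversion or 25 Arf6 genes was, and in shSrsf3 cells edgeR called none of these lists' genes for ligand, beside 0.565% of all tested genes.

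**Figure D5:**
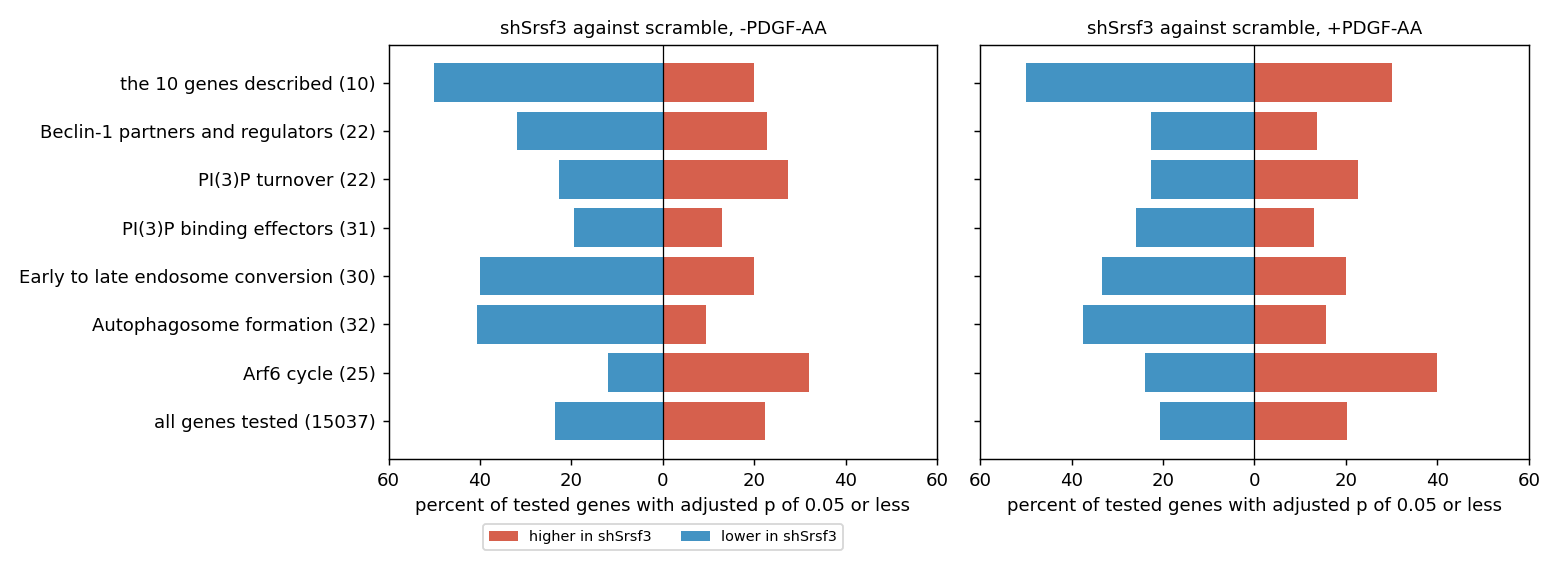
Percent of the tested genes of each list that were higher (right of 0) or lower (left of 0) in shSrsf3 and were called, for -PDGF-AA (left panel) and +PDGF-AA (right panel), with the number of tested genes in brackets. All tested genes stand at 22.2% higher and 23.7% lower without and 20.3% and 20.7% with ligand, and the lists for Beclin-1 partners, PI(3)P binding, endosome conversion and autophagosome formation have more lower than higher genes in both panels.

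Over the 12 samples, the log2 CPM of Becn1 and Uvrag had a Pearson r of -0.94 and those of Wdr81 and Atg14 one of 0.92. Both values describe samples that share 2 lines and 2 ligand conditions, so that genes which differ between the same groups correlate. Among 12252 genes with a mean count of at least 50, the profiles most like that of Becn1 were those of Gdap2 (r = 0.97), Gcc1 (0.96) and Supv3l1 (0.96). Those most like Wdr81 were Smad3 (r = 0.97), Foxo3 (0.96) and Abtb1 (0.95).

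The promoters of 8 of the 10 genes were found in RefSeq sequence of GRCm38.p6, from 250 bases before to 50 after the annotated start. Those of Becn1 and Pik3c3 are not given here. The letters CACGTG, which read the same on both strands and form the core of the element bound by TFEB, a regulator of lysosome and autophagy genes, were in 5 of the 8 and in 11.6% of the promoters of 10729 tested genes. Most lists of related genes were below that share, at 11.1% for autophagosome formation and for PI(3)P turnover, 8.0% for PI(3)P binding and 4.55% for Beclin-1 partners. Above it were the Arf6 cycle, at 15.8%, and endosome conversion, with 6 of 24 promoters. These shares were not tested. The 5 sites are shown with 12 bases on each side, 5′ to 3′ on the strand of the gene and with the motif in capitals, because they occur both in genes that fell and in genes that rose in shSrsf3.
Acap3 (chr4:155891718-155891747, plus strand): gcggggcgcttgCACGTGgcccgcggtcga
Nrbf2 (chr10:67285472-67285501, minus strand): gacccggctcatCACGTGacagccgccgcc
Wdr81 (chr11:75454724-75454753, minus strand): gccctttagagaCACGTGcggttgtttccg
Atg14 (chr14:47568418-47568447, minus strand): aaaacaaaatccCACGTGactggccctgag
Rubcn (chr16:32868437-32868466, minus strand): cgcctagcacatCACGTGtacccaggttag

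Of these, Atg14, Nrbf2 and Wdr81 were lower and Acap3 higher in shSrsf3 in both ligand conditions, and Rubcn was called higher with ligand only. Atg14 and Wdr81, the genes that fell with ligand in scramble, were among the 5, and the other 3 were not called for ligand. The longer form TCACGTGA was in 1 of the 9 promoter sequences matched to these genes, that of Nrbf2, and in 0.974% of 32851 promoters. The match is of letters only, and binding was not measured.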

How the data were processed

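PolyA RNA was sequenced as stranded libraries from 12 samples. The authors quantified reads with Salmon 1.4.0 against GENCODE M26 (GRCm39) and deposited estimated counts per gene, of which 16.3% are not whole. These were rounded here. They carry no isoforms, so splicing was not analysed. Groups were taken from the sample titles. Counts were tested with edgeR 4.0.16 (filterByExpr with a minimum count of 10, TMM, 1 model of 4 group means, quasi-likelihood test, Benjamini-Hochberg over 15037 genes, threshold 0.05), with DESeq2 1.42.0 as an alternative. The SE and 95% intervals came from the same test. The biological coefficient of variation was 0.07. The procedure was tested on simulated data. Ratios of counts were compared with a two-sided exact permutation test within ligand conditions, and no set test was run. Totals ran from 30958870 to 76123207 counts, and 24352 of 51490 genes had none.

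Positions, lengths, transcripts and 31-base words came from GENCODE M39 on the same build. All 10 genes were described. Of each list, the 2 genes with the largest mean change among those called with the same sign in both Srsf3 comparisons were named, and for Becn1 and Wdr81 the 3 genes with the highest correlation. The genes and lists were chosen with earlier results of these data known. Replicate numbers were not taken to pair samples. Other scaling, no filter, a 2-fold minimum, a replicate block, only the groups compared, leaving out each library and leaving out the 3 libraries with the lowest mapping rates were tried.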

Additional observations from a re-analysis of the deposited data

How the results depend on the processing

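The log2 fold changes of the 10 genes kept their direction wherever they were called, and no alternative reversed a call. DESeq2 size factors changed no call. Over all alternatives, the log2 fold change of Atg14 ran from -0.70 to -0.29 for ligand in scramble. It ran from -0.61 to -0.23 for shSrsf3 without ligand. That of Wdr81 ran from -0.42 to -0.24 for ligand in scramble. A fold minimum of 2 left 0 of the 10 genes called in every comparison and, over all genes, 864 and 815 for shSrsf3 without and with ligand, 30 and 6 for ligand in scramble and shSrsf3 and 1 for the interaction. Without a filter on low counts, 1289 genes were called for ligand in scramble, 374 in shSrsf3 (1 of the 10, Atg14) and 218 for the interaction, against 608, 85 and 2. With only the groups compared, ligand called 247 genes in scramble (1 of the 10) and 201 in shSrsf3 (1 of the 10). DESeq2 called 210 genes for ligand in shSrsf3 and 26 for the interaction. The 3 libraries of lowest mapping rate in the study are all scramble, -PDGF-AA replicates 1 and 2 and +PDGF-AA replicate 2. Leaving them out keeps 1 library in scramble -PDGF-AA, so the spread in that group was not measured. Mapping rate cannot be told apart from line in this fit, and its counts and adjusted p, given next, are not read as results. Without the 3 libraries of lowest mapping rate, 231 genes (1 of the 10) were called for ligand in shSrsf3 and 16 for the interaction, Becn1 without ligand had an adjusted p of 0.0904 by edgeR, Rubcn with ligand 0.0553 and Wdr91 with ligand 0.0341.

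Leaving out each library in turn gave 6 to 7 and 5 to 9 of the 10 genes for shSrsf3 without and with ligand (5 without scramble +PDGF-AA replicate 1 or 2), 0 to 2 and 0 to 1 for ligand in scramble and shSrsf3 and 0 for the interaction. Over all genes it gave 5838 to 7202, 5245 to 6678, 243 (without scramble +PDGF-AA replicate 3) to 1472 (without scramble -PDGF-AA replicate 3), 23 (without shSrsf3 -PDGF-AA replicate 1) to 168 (without scramble -PDGF-AA replicate 3) and 1 to 6. The ratios kept their side of the threshold. With the longest coding transcript as length, levels in scramble -PDGF-AA became 72.3 for Becn1, 32.0 for Nrbf2, 18.7 for Pik3r4, 14.8 for Uvrag, 14.6 for Acap3, 14.2 for Pik3c3 and 6.25 for Wdr91.

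The deviations of samples with the same replicate number correlated at -0.14 to 0.20, so the numbers were not taken to pair samples. A replicate block called 1 gene for the interaction against 2 and changed no other call of the 10 genes. The lowest counts were 173 to 217 for Atg14 and 246 to 323 for Wdr91 in shSrsf3 +PDGF-AA. Atg14 had the widest intervals, and it also had a large spread in scramble -PDGF-AA (SD 1.55 on a mean of 9.61 CPM). The part of each was not tested.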
